A study of Saccharomyces cerevisiae with 54 samples.

Results

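The genes with which budding yeast takes up and splits maltose, related sugars and sucrose were followed in 17 non-laboratory strains of Saccharomyces cerevisiae. They were chosen by name, with earlier results of these data known, and are 8 of the 6264 genes measured. The transporter genes are MAL11 (YGR289C) and MAL31 (YBR298C), the α-glucosidase (maltase) genes are MAL12 (YGR292W) and MAL32 (YBR299W), and IMA1 (YGR287C) encodes an isomaltase. The activator genes are MAL13 (YGR288W) and MAL33 (YBR297W), and SUC2 (YIL162W) encodes invertase. MAL11, MAL12, MAL13 and IMA1 lie on chromosome VII, MAL31, MAL32 and MAL33 on chromosome II, and SUC2 on chromosome IX. The strains were B1, I14, K1, K9, M22, M8, PR, RM11a, SB, Y1, Y10, Y12, YJM269, YJM308, YJM789, YPS1009 and YPS163. On each of 54 spotted arrays, with 1 oligonucleotide per open reading frame, RNA of a strain was hybridized together with RNA of DBY8268, the diploid S288C laboratory strain with ura3-52/ura3-delta, ho/ho and GAL2/GAL2. M8, Y10 and YPS163 had 4 arrays each and the other 14 strains had 3. The study gives RM11a and YJM789 as haploids, and each strain name stands for a single isolate. All cultures grew in YPD, a rich medium whose sugar is glucose, at 30 °C for 3 doublings to log phase.

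Maltose enters the yeast cell through permeases that carry it together with protons, and an α-glucosidase inside the cell splits it into glucose. Transporter, maltase and activator genes stand side by side in MAL loci near chromosome ends, and strains differ in how many such loci they carry. The activator is a zinc-finger protein that switches on the other genes of the locus when maltose is present, and the activator genes of S288C are known to be defective. Invertase is secreted and splits sucrose outside the cell. Glucose represses both systems through the repressor Mig1, which the kinase Snf1 counteracts, so that the cells studied here, fed on glucose and without added maltose, are in the state in which these genes are normally low.

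Values below are log2 ratios of a strain over DBY8268, so that 1 means a doubled level in the strain and a negative value a lower level. A difference is said to be called when limma's adjusted p, after Benjamini-Hochberg correction over all genes within a strain, was under 0.01. Errors after ± are standard errors of the fit over all 54 arrays. Mating-type genes served as a check of labels and direction: the a-specific genes of haploid RM11a had a median of 6.18 over 4 genes, and the α-specific genes of haploid YJM789 a median of 7.44 over 3 genes. The α-specific gene STE3 was also called higher in I14, which the study does not name as a haploid, at 3.87 on 2 arrays (limma, adjusted p = 0.0010). The reason was not tested. Between 3393 and 5897 genes had a value on an array. The samples are labelled as biological replicates, and in these ratios fewer copies of a gene and less transcript per copy cannot be told apart. Copy number and sequence differences between strains at the oligonucleotides were not analysed here.

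Values for the maltose and sucrose genes were often missing. Of 432 possible values, 255 (59.0%) were present, against 80.9% over all genes. All 8 genes had a value on fewer arrays than the median gene, which had 50. MAL11 gave a value on 16 arrays, MAL12 on 22, MAL32 on 26, IMA1 on 27, MAL13 on 37, MAL33 on 38, SUC2 on 42 and MAL31 on 47. MAL31 alone was measured in all 17 strains, whereas MAL12 was measured in 11 and MAL11 in 12. In M22, RM11a and YJM789 only 33.3% of the values were present, and in YJM789 they belonged to MAL31 and SUC2 alone. On 2 arrays none of the 8 genes had a value. The share present was 63.9% where the strain carried the Oyster 650 dye and 49.3% where it carried Oyster 550, against 82.3% and 78.1% over all genes, and it was 74.5% on slide series yG5 and 46.9% on series yG6. Every array with the strain in Oyster 550 was on series yG6, as were all arrays of M22, RM11a and YJM789. The shares by dye, by series and in these strains therefore cannot be told apart. Whether a missing spot means a low transcript was not tested.

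**Figure D1:**
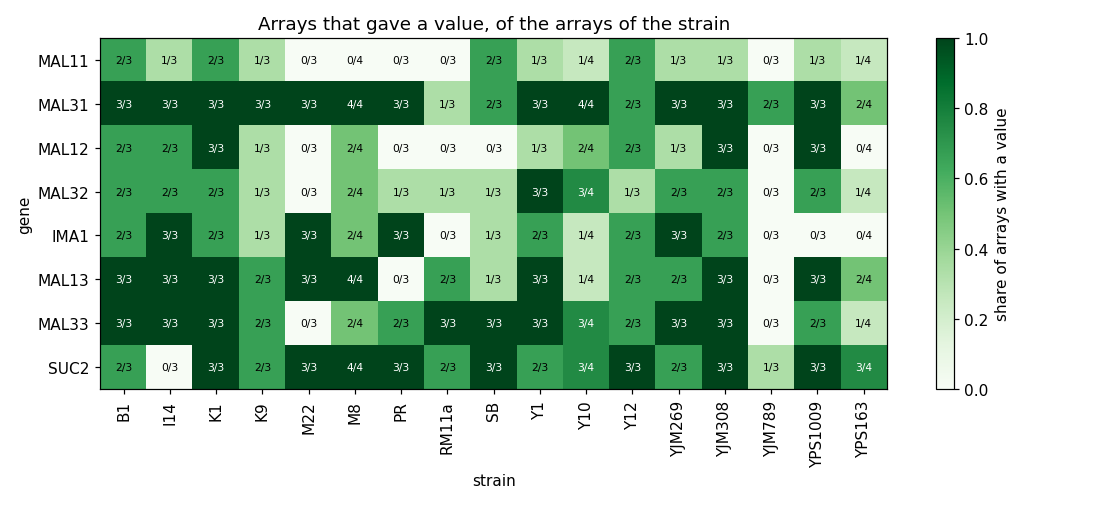
Number of arrays with a value out of the arrays of each strain (columns), for the 8 genes (rows); darker cells mark a larger share of arrays. MAL31 was measured in every strain, while MAL11 was missing in 5 strains, MAL12 in 6, and 6 of the 8 genes in YJM789.

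The 8 genes could be tested in 114 combinations of gene and strain. Relative to DBY8268, 18 of them were called (15.8%, against 8.74% of the tests over all genes). Higher calls numbered 15 (13.2%, background 3.86%) and lower calls 3 (2.63%, background 4.88%). The higher calls were 5 for MAL31, 4 for IMA1, 2 each for MAL12 and MAL32, and 1 each for MAL33 and SUC2, and the lower calls were 2 for MAL33 and 1 for SUC2. Calls of near-identical genes such as MAL12 and MAL32 may not be independent, since an oligonucleotide may also bind RNA of the other copy. MAL11 and MAL13 were called in no strain by limma; the other 6 genes had at least 1 call. At an unadjusted p under 0.05, 45 of the 114 combinations passed (39.5%, background 25.6%). In all 18 calls every array that gave a value, 44 in total, lay on the same side of 0, although 2 calls rested on 1 array. Arrays of the same strain scattered with a residual SD of 0.47 for SUC2 and 0.98 for MAL33, the lowest and highest among the 8 genes, beside a median of 0.43 over all genes. Between strains the SD of the strain means had a median of 0.99 over the 7 genes measured in at least 12 strains and of 0.34 over all genes measured in as many.

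**Figure D2:**
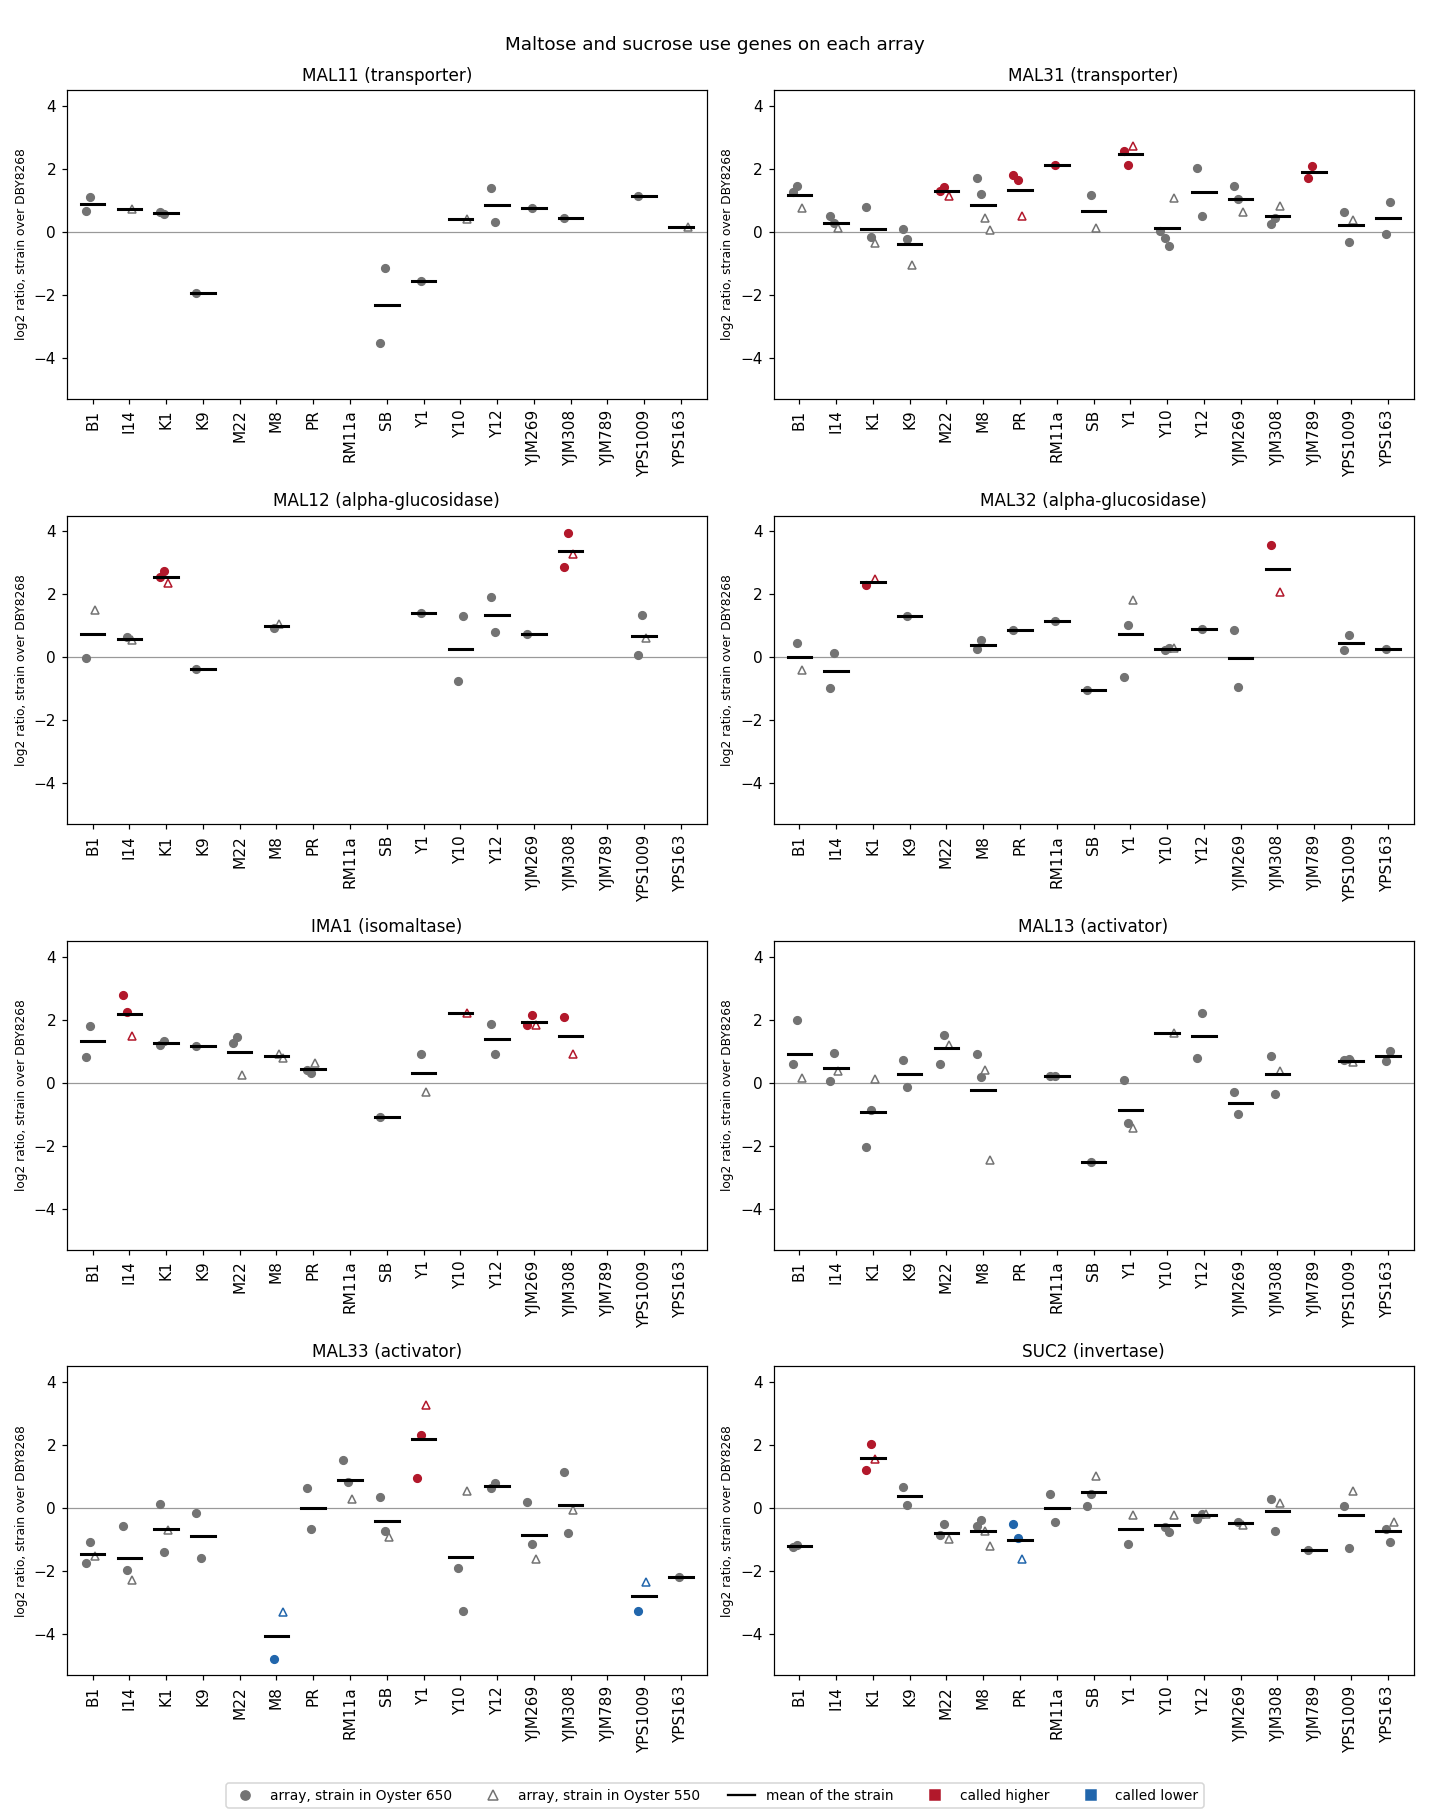
Log2 ratio of each strain over DBY8268 (vertical axis, same scale in all panels) on each array, by gene (panels) and strain (horizontal axis). Filled circles are arrays with the strain in Oyster 650, open triangles those with Oyster 550, black lines strain means, and red or blue marks calls higher or lower; MAL12 and MAL32 stand out in K1 and YJM308, MAL31 and MAL33 in Y1, and SUC2 in K1.

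Among the transporters, MAL31 was called higher than in DBY8268 in 5 of 17 strains. Its strain means averaged 0.90 (SD 0.78) and lay above 0 in 16 strains, K9 being the exception. In Y1 the values were 2.57, 2.12 and 2.71, a mean of 2.47 ± 0.31, or 5.53-fold (adjusted p = 9.45e-07). YJM789 had 1.70 and 2.10, a mean of 1.90 ± 0.38 (adjusted p = 2.66e-04). The only array of RM11a that gave a value had 2.13 (adjusted p = 0.0045). All 3 arrays of Y1 and that of RM11a lay above every array of an uncalled strain, of which the highest was 2.03 in Y12, while the lower array of YJM789 did not. PR had 1.81, 1.63 and 0.50 (mean 1.31 ± 0.31, adjusted p = 0.0036), and M22 had 1.30, 1.43 and 1.13 (mean 1.29 ± 0.31, adjusted p = 0.0024). These 2 strains overlapped with uncalled strains such as B1, with 1.26, 1.45 and 0.77, and Y12, with 2.03 and 0.50. YJM269, with 1.45, 1.04 and 0.63, and I14, with 0.49, 0.28 and 0.11, were above 0 on every array and not called, and M8 had 1.70 and 1.21 with Oyster 650 and 0.43 and 0.05 with Oyster 550. At the low end K9 had 0.09, -0.23 and -1.07, K1 averaged 0.09, and Y10 averaged 0.11 with values of 0.02, -0.19, -0.46 and 1.08.

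How far MAL31 depended on single arrays was checked by leaving each out. The call in M22 was lost without any 1 of its replicates 1, 2 and 3 (adjusted p = 0.022, 0.027 and 0.013), that in PR without replicate 1 or 2 (0.092 and 0.068), and that in YJM789 without replicate 2 (0.020), while the call in Y1 was kept. The call in RM11a rests on its only array with a value and could not be run without it. In the 13 strains with both dyes, MAL31 was lower with Oyster 550 in 9 and higher in 4, by 0.35 on average (SD 0.76), and all called strains kept their call with a term for the dye. All arrays with Oyster 550 were on slide series yG6, so dye and series mostly cannot be told apart here.

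MAL11 encodes a transporter with a broad range of α-glucosides (also known as AGT1). Its strain means fell into 9 positive and 3 negative ones, with an average of 0.01 (SD 1.21 over 12 strains). The positive strain means ran from 0.14 in YPS163 to 1.15 in YPS1009, each on 1 array. Below 0 lay SB, with -3.53 and -1.14, and K9 and Y1, each with 1 value, of -1.93 and -1.55. No array of the other 9 strains was below 0. None of the 12 strains was called, and 8 of them had MAL11 on 1 array only. In Y1 the array with MAL11 at -1.55 gave MAL31 at 2.12.

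The maltase genes were highest in K1 and YJM308. MAL12 had 2.88, 3.96 and 3.29 in YJM308, a mean of 3.38 ± 0.37 or 10.4-fold (adjusted p = 1.12e-05), and 2.54, 2.74 and 2.37 in K1, a mean of 2.55 ± 0.37 or 5.86-fold (adjusted p = 1.62e-04). All 3 arrays of each strain lay above the highest array of any other strain, 1.90 in Y12. The other strains averaged between -0.38 in K9, on 1 array, and 1.41 in Y1, on 1 array, and none of them was called. Among strains with more than 1 value, M8 had 0.93 and 1.05, I14 had 0.63 and 0.56, and YPS1009 had 0.08, 1.34 and 0.60. In B1, with -0.01 and 1.50, and in Y10, with -0.76 and 1.31, arrays of the same strain lay on both sides of 0.

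MAL32, the maltase gene of the locus on chromosome II, gave the same pair of strains. MAL12 and MAL32 are near-identical, and whether their oligonucleotides read the same RNA was not tested. YJM308 had 3.55 and 2.07, a mean of 2.81 ± 0.51 or 7.01-fold (adjusted p = 0.0012), and K1 had 2.29 and 2.47, a mean of 2.38 ± 0.51 or 5.21-fold (adjusted p = 0.0053). The next highest array was 1.82 in Y1, where the other arrays had -0.62 and 1.01. The lowest value was -1.05, on the only array of SB. Strain means of the uncalled strains reached 1.30 in K9, again on 1 array, while Y10 stayed near DBY8268 on all 3 of its arrays, with 0.24, 0.28 and 0.28.

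The MAL12 calls against DBY8268 were kept without any single array. Those of MAL32 were not: the call in K1 was lost without replicate 1 (adjusted p = 0.065) or replicate 3 (0.097), and that in YJM308 without replicate 1 (0.073). With slide series as a block, MAL32 came to 1.83 in K1 (adjusted p = 0.047) and 2.26 in YJM308 (0.012). In slide series yG5 MAL32 was 2.29 in K1 and 3.55 in YJM308, and in series yG6 it was 2.47 and 2.07.

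In the 2 strains with high maltase transcripts the transporter and activator genes did not stand out. On the same arrays, MAL12 exceeded MAL31 by 2.87 ± 0.58 in YJM308 and by 2.46 ± 0.62 in K1 (SD, n = 3 arrays each). It exceeded MAL13, the activator gene of its own locus, by 3.09 ± 1.15 in YJM308 and by 3.48 ± 1.17 in K1 (SD, n = 3 arrays each). MAL31 was 0.26, 0.43 and 0.83 in YJM308 and 0.79, -0.16 and -0.36 in K1, values that fall on either side of 0 in K1. MAL11 was 0.45 on the only array of YJM308, and 0.64 and 0.56 in K1. MAL33 averaged 0.10 in YJM308 and -0.65 in K1, and MAL13 averaged 0.29 and -0.93, none of them called.

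IMA1, which splits the α-1,6 bond of isomaltose and is a close paralog of the maltase genes, was above 0 in 12 of the 13 strains with a value (mean 1.11, SD 0.88). I14 had 2.79, 2.25 and 1.49, a mean of 2.18 ± 0.30 or 4.52-fold (adjusted p = 3.93e-05). YJM269 had 1.84, 2.14 and 1.83, a mean of 1.94 ± 0.30 (adjusted p = 1.30e-04). Neither strain had a call for a maltase gene: MAL12 was 0.63 and 0.56 in I14 and 0.73 on the only array of YJM269, and MAL32 was -0.98 and 0.12 in I14 and 0.88 and -0.94 in YJM269. Y10 had 2.22 on 1 array (adjusted p = 0.0079), and YJM308 had 2.09 and 0.90 (adjusted p = 0.0076). K1, with 1.21 and 1.33, and M22, with 1.25, 1.46 and 0.24, were above 0 on every array and not called, and PR was close to DBY8268 at 0.39, 0.31 and 0.63. SB, with -1.09 on 1 array, was the lowest. In 5 of the 6 strains with both dyes IMA1 was lower with Oyster 550, by 0.73 on average over the 6 (SD 0.63). Here too the arrays with Oyster 550 were all on slide series yG6.

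The IMA1 calls in I14 and YJM269 were kept without any single array and under every alternative. The call in Y10 rests on replicate 4, its only array with a value, and could not be run without it. The call was lost when any of 14 other arrays was left out, with the value unchanged at 2.22 without replicates 2 and 3 of Y10, which gave no IMA1 value. In YJM308 it was lost without its replicate 1 (0.90, adjusted p = 0.30) or 3 (2.09, adjusted p = 0.0103) and without any of 8 arrays of other strains.

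MAL33, which encodes the activator of the locus on chromosome II, varied the most among the 8 genes (SD 1.55 over 15 strain means, average -0.83). Its means were below 0 in 11 strains and above 0 in 4. In M8 it had -4.80 and -3.30, a mean of -4.05 ± 0.65, or 16.6-fold lower (adjusted p = 4.40e-05). YPS1009 had -3.26 and -2.33, 6.94-fold lower (adjusted p = 0.0029). Y1 had 0.97, 2.31 and 3.28, a mean of 2.19 ± 0.53 or 4.55-fold higher (adjusted p = 0.0066). The arrays of M8 were the lowest of all 38, while those of Y1 overlapped with RM11a, at 1.53, 0.84 and 0.29, and with 1 array of YJM308, at 1.14. Negative on all 3 arrays but not called were B1, with -1.74, -1.08 and -1.52, and I14, with -0.55, -1.95 and -2.28. YPS163 had -2.18 on 1 array, and Y10 ranged widely, with -1.91, -3.26 and 0.56.

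Between strains, MAL33 differed by 6.24 ± 0.84 for Y1 over M8 (adjusted p = 6.51e-06) and by 4.98 ± 0.84 for Y1 over YPS1009 (adjusted p = 2.15e-04). RM11a was also above both, by 4.94 ± 0.84 over M8 (adjusted p = 2.53e-04) and 3.68 ± 0.84 over YPS1009 (adjusted p = 0.0042). Y1 and RM11a were the highest strains for MAL33 and YPS1009 and M8 the lowest, so these differences largely follow from picking the extremes. Against DBY8268 the call in M8 was lost without its replicate 2 (-3.30, adjusted p = 0.020), in YPS1009 without replicate 1 or 3 (adjusted p = 0.096 and 0.019), and in Y1 without replicate 2 or 3 (0.036 and 0.093). In none of these did the sign change.

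MAL13, the activator gene on chromosome VII, was called in no strain. Strain means averaged 0.18 (SD 1.09 over 15 strains), with 10 above 0 and 5 below. The highest was Y10 with 1.59 on 1 array, followed by Y12 with 0.78 and 2.22, and the lowest was SB with -2.53 on 1 array. On every array above 0 were M22, with 0.61, 1.53 and 1.19, B1, with 0.61, 1.98 and 0.16, and YPS1009, whose 0.72, 0.74 and 0.65 agree closely and stand beside its low MAL33. K1 had -2.03, -0.88 and 0.12 and Y1 had 0.08, -1.27 and -1.43, so that arrays of either strain lay on both sides of 0. In M8, 3 arrays had 0.90, 0.19 and 0.42 while replicate 4 had -2.45. That array was also the one on which MAL33 was -3.30 in M8.

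SUC2 was called higher than in DBY8268 in K1 and lower in PR. Its means were below 0 in 12 of 16 strains (average -0.34, SD 0.73), and I14 gave no value on any of its 3 arrays. K1 had the highest level, with 1.21, 2.03 and 1.56, a mean of 1.60 ± 0.27 or 3.03-fold (adjusted p = 4.80e-05). Each of these 3 arrays was above the highest array of any other strain, 1.02 in SB, where the other arrays had 0.07 and 0.44. PR had -0.49, -0.94 and -1.62, a mean of -1.02 ± 0.27 (adjusted p = 0.0091). B1, with -1.22 and -1.16, and YJM789, with -1.33 on 1 array, had lower means than PR but were not called. M8, with -0.57, -0.36, -0.73 and -1.21, M22, with -0.86, -0.49 and -0.97, and YPS163, with -0.66, -1.08 and -0.45, were negative on every array without passing the threshold, and Y12 was near 0 at -0.33, -0.19 and -0.17. Levels in K9, with 0.69 and 0.11, stand beside a shift of its chromosome IX, whose genes were 0.42 above the other chromosomes in the median (0.34 to 0.49 on its 3 arrays). From hybridization of genomic DNA, the study reports that this chromosome appears amplified in K9. Whether that bears on SUC2 was not tested.

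K1 exceeded 12 of the other 15 strains in SUC2 when strains were compared in pairs, by 1.69 ± 0.38 over YJM308 (adjusted p = 0.0041) up to 2.93 ± 0.53 over YJM789 (adjusted p = 2.03e-04). The 3 strains from which K1 was not told apart were SB, K9 and RM11a, the other strains with a mean above 0. The SUC2 call in K1 was kept without any single array and under every alternative, with a largest adjusted p of 0.0051 without an array. In PR the call was lost without its replicate 2 (-1.05, adjusted p = 0.050) or 3 (-0.71, adjusted p = 0.23) and without any of 18 arrays of other strains (adjusted p between 0.0101 and 0.0111), as well as with a dye term (adjusted p = 0.012) and in a separate fit of PR (0.045). On arrays with at least 4500 genes SUC2 in PR came to -0.71 (adjusted p = 0.21).

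A comparison with the mean of the strains that gave a value, in which DBY8268 drops out, asked which strains stood apart from the rest. That mean was over 17 strains for MAL31, 16 for SUC2, 15 for MAL32, MAL33 and MAL13, 13 for IMA1, 12 for MAL11 and 11 for MAL12. Here 5 combinations were called (4.39%, background 2.67%), 4 of them higher (3.51%, background 1.59%) and 1 lower (0.877%, background 1.07%). SUC2 in K1 was 1.94 above its mean (adjusted p = 1.29e-05), and MAL12 in YJM308 was 2.26 above (adjusted p = 0.0011). In Y1, MAL33 was 3.02 above (adjusted p = 6.43e-04) and MAL31 was 1.56 above (adjusted p = 0.0016). The lower one was MAL33 in M8, at -3.22 (adjusted p = 0.0034). MAL32 in YJM308 was 2.14 above its mean and did not pass (adjusted p = 0.019), and MAL12 in K1 was 1.43 above (adjusted p = 0.052). No IMA1 difference was called on this scale; I14 was 1.06 above the mean (adjusted p = 0.11).

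Of these 5 calls, SUC2 in K1 was the one kept without any single array. MAL12 in YJM308 was lost without replicate 2 or 3 (adjusted p = 0.015 and 0.012), MAL31 in Y1 without replicate 1 or 3 (0.044 and 0.018), MAL33 in Y1 without replicate 3 (0.015), and MAL33 in M8 without replicate 2 or 4 (0.26 and 0.018). MAL33 in M8 was also lost with slide series as a block (adjusted p = 0.018), although it was low in either series, at -4.80 in yG5 and -3.30 in yG6.

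**Figure D3:**
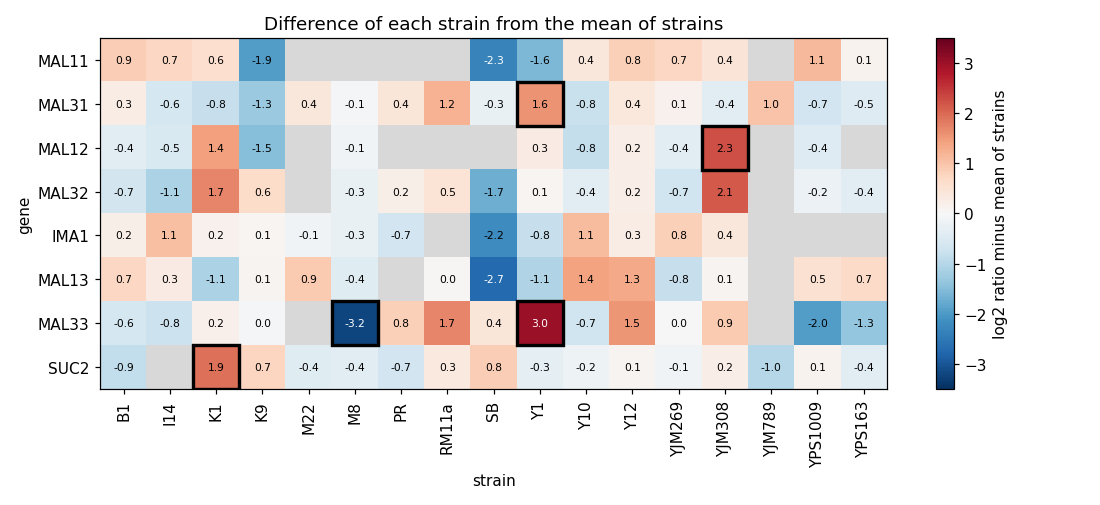
Difference of each strain (columns) from the mean of strains for each gene (rows), in log2 units, with red above and blue below the mean, grey where no test was possible, and black frames around the 5 called cells. The frames mark SUC2 in K1, MAL31 and MAL33 in Y1, MAL12 in YJM308 and MAL33 in M8.

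The third comparison was with YPS163, a strain from oak. YPS163 gave no value for MAL12 or IMA1, so that 84 combinations of the other 6 genes could be tested. SUC2 in K1 was the only call, 2.33 ± 0.38 above YPS163 (adjusted p = 1.87e-04), with values of 1.21, 2.03 and 1.56 in K1 and -0.66, -1.08 and -0.45 in YPS163. It makes 1.19% of the tests, beside a background of 1.47% higher calls and 2.00% in either direction. No combination was called lower by limma (background 0.533%), and 16 of the 84 had an unadjusted p under 0.05 (19.0%, background 13.1%). MAL31 in Y1 was 2.02 ± 0.50 above YPS163 (adjusted p = 0.014) and MAL33 in Y1 4.37 ± 1.07 above it (adjusted p = 0.017), where MAL33 had 1 array in YPS163. These 3 comparisons share all arrays of the strains, so that their calls are not independent of each other.

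Taking every pair of strains, 38 of 770 tests were called (4.94%, background 2.89%). They were 12 for SUC2, 11 for MAL31, 9 for MAL33, 4 for MAL12 and 2 for IMA1. For MAL31, Y1 was above K9, K1, Y10, YPS1009, I14 and YJM308, by 1.96 ± 0.44 (YJM308) to 2.87 ± 0.44 (K9), and YJM789 was above K9, Y10 and K1. MAL12 was higher in YJM308 than in I14, K9, Y10 and YPS1009, by 2.70 ± 0.52 (YPS1009) to 3.76 ± 0.74 (K9). For IMA1, I14 and YJM269 were above SB, by 3.27 ± 0.60 and 3.03 ± 0.60, where SB had 1 array. When strains were ordered by level, however, no neighbouring pair was called for any of the 8 genes (limma, 0 of 106 pairs, 2 of them with an unadjusted p under 0.05, smallest adjusted p 0.12). For MAL11, MAL32 and MAL13 no pair of strains was called at all (0 of 66, 105 and 105 pairs), so that their order was not established between any strains, and for the other 5 genes calls fell only between strains that were not neighbours.

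By strain, K1 and YJM308 had 3 calls each against DBY8268, among 8 genes tested in either. Over all genes the share called was 6.99% in K1 and 11.1% in YJM308. Those of K1 were MAL12, MAL32 and SUC2, and those of YJM308 were MAL12, MAL32 and IMA1. The MAL12 and MAL32 calls of a strain may count the same RNA, so they need not be separate signals. Y1 had MAL31 and MAL33 higher, and PR had MAL31 higher and SUC2 lower, beside 6.39% and 7.48% of all genes called in them. I14, Y10, YJM269, M22, RM11a and YJM789 had 1 higher call each, and M8 and YPS1009 had 1 lower call each. In these strains 6.23% (I14) to 19.6% (YJM789) of all genes were called, and M22 and YJM789 had only 4 and 2 genes with a value. No call fell in B1, K9, SB, Y12 or YPS163, where the share over all genes ran from 4.63% in B1 to 8.44% in YPS163. With at most 8 genes tested per strain, a single call or none does not set a strain apart. In SB, 5 of the 7 genes with a value were below 0, and SB had the lowest level of MAL11, MAL32, IMA1 and MAL13, on 2, 1, 1 and 1 arrays, although none passed the test.

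Paralogous genes were compared on the same array, which removes differences between arrays, as a description without a test. Because the 8 genes include near-identical copies, an oligonucleotide may also bind RNA of a paralog, and how much it does was not tested. MAL12 and MAL32 were the most alike: over 14 arrays in 10 strains MAL12 minus MAL32 averaged 0.30 (SD 0.76), and it was within 1 unit on 10 arrays. Their strain means, which need not come from the same arrays, had a Pearson r of 0.75 over 11 strains. K1 (2.55 and 2.38) and YJM308 (3.38 and 2.81) had the highest means of both genes, and the r without them was not computed. In K9, MAL12 was -0.38 and MAL32 was 1.30, on different arrays. The transporters did not follow each other. MAL11 minus MAL31 averaged -0.63 (SD 1.24, 14 arrays), with a low of -3.67 in Y1, and the strain means had an r of -0.09 over 12 strains.

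MAL13 and MAL33 were the least alike, with differences from -4.71 to 4.99 over 30 arrays (mean 0.68, SD 2.13) and an r of -0.20 over 14 strains. Replicate 3 of Y1 had MAL13 at -1.43 and MAL33 at 3.28, and replicate 2 of M8 had 0.19 and -4.80. IMA1 minus MAL12 averaged -0.03 (SD 1.23, 13 arrays), and their strain means had an r of -0.20 over 10 strains. Within the locus on chromosome II, MAL31 and MAL33 had an r of 0.60 over 15 strains, with MAL31 above MAL33 on 31 of 35 arrays, whereas MAL32 had an r of -0.06 with MAL31 and 0.30 with MAL33, also over 15 strains. On chromosome VII, MAL13 had an r of 0.72 with its neighbour IMA1 and 0.62 with MAL11, over 12 strains each, and -0.32 with MAL12 over 11 strains. SB had the lowest strain mean of MAL13 (-2.53) and IMA1 (-1.09), on 1 array each, and of MAL11 (-2.335), on 2 arrays. How far the r values of 0.72 and 0.62 rest on SB was not tested. All strain means compared here share the DBY8268 sample on every array.

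**Figure D4:**
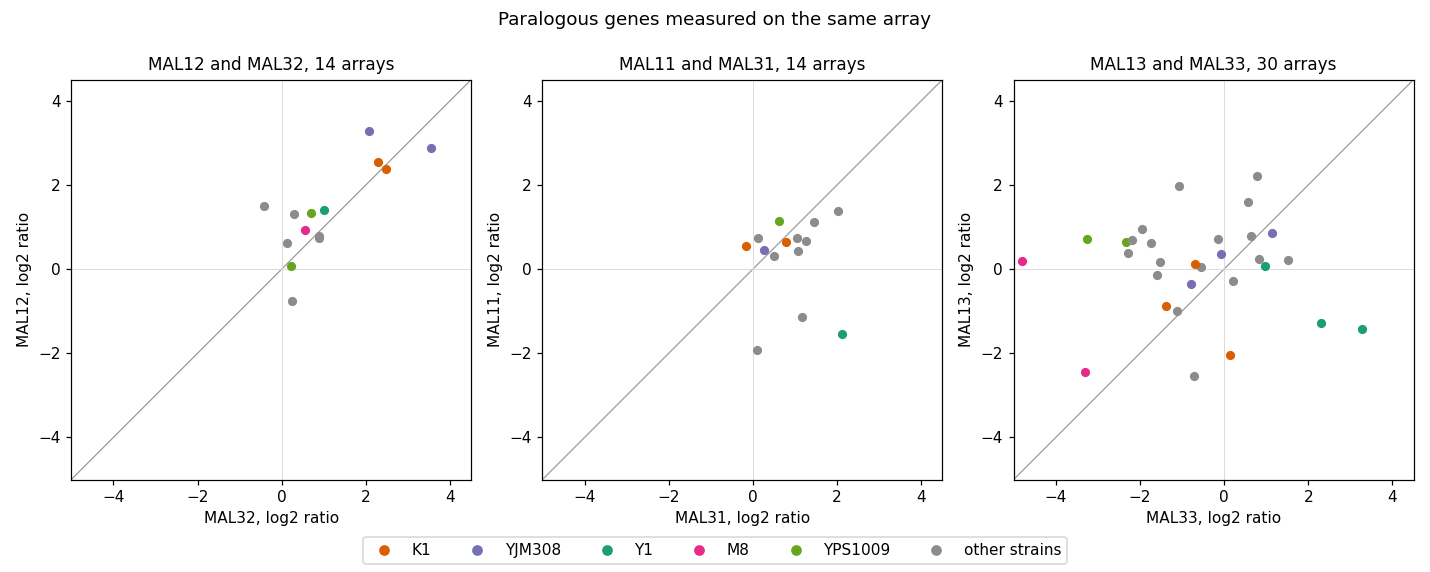
Log2 ratios over DBY8268 of paralogous genes on the same array (points), with the chromosome VII gene on the vertical and the chromosome II gene on the horizontal axis; the grey diagonal marks equal ratios and colours mark 5 strains. MAL12 and MAL32 lie near the diagonal with K1 and YJM308 at the upper end, whereas MAL13 and MAL33 spread widely, with Y1 at the right and M8 at the left.

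For each gene with at least 12 strains, the genes with the most similar strain means across the table were listed, as a description. FPR2 was most like MAL31 (r = 0.94 over 17 strains), ahead of YPL216W and TMS1. YCR101C, KRE28 and GON7 led for MAL11 (r of YCR101C 0.90 over 12 strains), and YHR140W, ICY1 and SEM1 for MAL32 (r of YHR140W 0.84 over 14 strains). IMA1 was most like YKL225W (r = 0.85 over 12 strains), EGH1 and ARN2. For MAL13 they were ARR2 (r = 0.85 over 13 strains), IDH1 and, in the third place, IMA1. MGP12 (r = 0.86 over 15 strains), SRC1 and PMT5 came first for MAL33, and RRP43 (r = 0.86 over 13 strains), DFP3 and VMA22 for SUC2. With so few strains and 5414 to 5725 genes compared for each member, high values of r arise among many genes, and IMA1 beside MAL13 is the only place where the 3 nearest genes include another of the 8. SB was the lowest strain for both IMA1 and MAL13, on 1 array each.

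Other genes of α-glucoside use were looked at beside these. Of 8 such genes (IMA2, IMA3, IMA4, IMA5, MPH2, MPH3, ZNF1 and YPR196W), 7 could be tested, with 10 higher and 2 lower calls in 82 tests (12.2% and 2.44%, against 3.86% and 4.88% over all genes) and a median ratio of 0.20, beside 0.45 for the 8 members of the maltose and sucrose group and -0.03 over all genes. YPR196W, a putative maltose activator gene, made 9 of the 10 higher calls. It averaged 1.65 (SD 0.90 over 15 strains) and reached 3.48 ± 0.52 in SB (adjusted p = 1.79e-05), whereas YPS1009 had -0.19. The isomaltase genes IMA3 and IMA4 averaged 0.11 and -0.03 with no call, and IMA2 averaged -0.42 and was lower in YJM269 at -2.32 ± 0.62 (adjusted p = 0.0090), a strain in which IMA1 was higher. The other higher call was ZNF1, a transcription factor gene, in PR (2.29, adjusted p = 0.0068), and the other lower call was MPH3, a maltose permease gene, in K1 (-3.23, adjusted p = 0.0086); both are named after their values were seen.

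For 23 regulators of glucose repression and sensing there were 5 higher and 18 lower calls in 385 tests, or 1.30% and 4.68% (median -0.06), the lower share being about that over all genes (3.86% higher and 4.88% lower). MIG2, which encodes a repressor of SUC2 related to Mig1, was lower than in DBY8268 in 7 strains and averaged -0.79 (SD 0.46), with its lowest level in YJM789 at -1.91 ± 0.21 (adjusted p = 4.13e-09). In K1, where SUC2 was high, MIG2 was -0.99 ± 0.21 (adjusted p = 7.23e-04) and its relative MIG3, named after its values were seen, -0.83 ± 0.20 (adjusted p = 0.0037). Neither set K1 apart from the mean of strains, at -0.20 for MIG2 and -0.24 for MIG3 (limma, adjusted p = 0.78 and 0.70). MIG3 was also called lower in K9 (-0.93) and, on 1 array each, in RM11a and YJM789 (-2.13 in both), and higher in Y1 (0.81). SUC2 was not called in any of these other strains. In PR, where SUC2 was called lower, MIG2 was also lower, at -0.77 ± 0.21 (adjusted p = 0.0099). SNF1 and MTH1, a regulator of glucose sensing, averaged 0.29 and 0.30, the highest of the list, and TOS3, a kinase upstream of Snf1, averaged -0.69 with 1 call.

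Among 17 other genes that glucose represses, 16 could be tested, with 7 higher and 11 lower calls in 226 tests (3.10% and 4.87%, median -0.19), shares near the 3.86% and 4.88% over all genes. ADH2, an alcohol dehydrogenase, was lower in 6 strains with an average of -0.84 (SD 0.80), and its activator gene ADR1 was lower in 5 strains with an average of -1.91 (SD 0.96 over 13 strains). FBP1 and CYB2, of gluconeogenesis and lactate use, averaged 0.62 and 1.09, with 2 higher calls each. CYB2 was called in YJM308 at 2.72 ± 0.56 (limma, adjusted p = 0.0013) and in Y12 at 2.54 ± 0.56 (adjusted p = 0.0035). MAL12 was called in YJM308 but not in Y12, where it was 1.345. The highest CYB2 mean was 3.02 in YJM789, which was not called and gave no MAL12 value. In K1 none of these other glucose-repressed genes was called by limma in either direction. Over all genes 6.99% were called in K1, so with at most 16 genes tested, no call is close to that share.

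Genes next to the 8 on their chromosomes gave 5 higher and 21 lower calls in 174 tests (2.87% and 12.1%, median -0.17 over 12 tested genes), against 3.86% and 4.88% over all genes. PHO89, a phosphate transporter gene beside MAL33, made 13 of the lower calls and averaged -3.54 (SD 1.34). It was at -5.34 ± 0.63 in Y1 (adjusted p = 2.18e-07), the strain with the highest MAL33 and MAL31, and at -0.62 ± 0.63 in I14. COS6, beyond the locus on chromosome VII, was lower in 6 strains (average -2.25, SD 1.33), while COS2 on chromosome II was higher in K1, K9 and Y12 and averaged 0.37. BIO2, next to IMA1, averaged 0.04. SMU2, next to SUC2, was at -2.95 ± 0.31 in I14 (adjusted p = 6.62e-09), the strain in which SUC2 gave no value on any array; SMU2 is named after its values were seen.

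**Figure D5:**
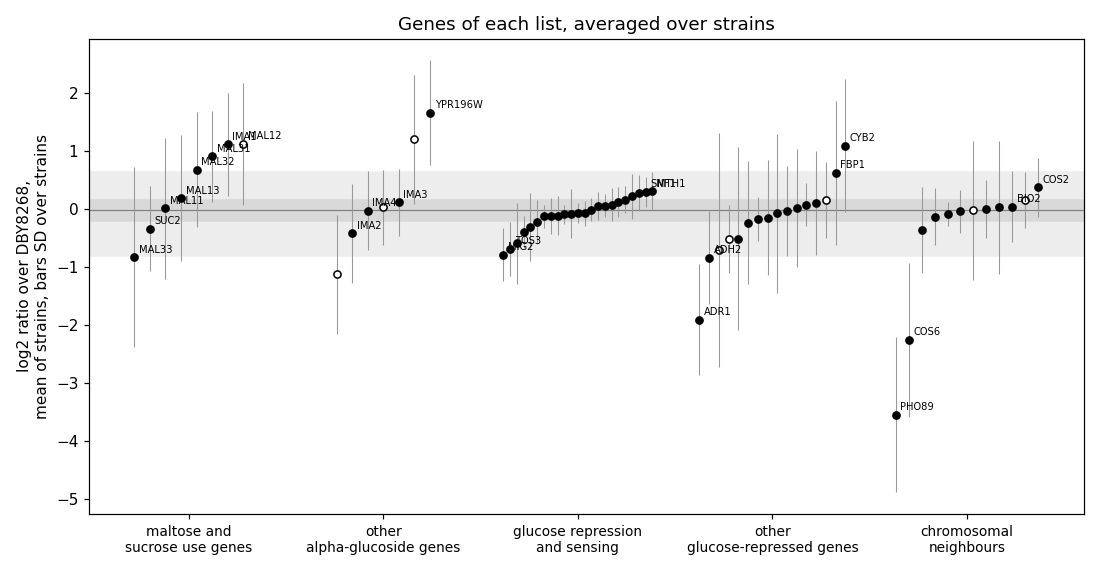
Mean over strains of the log2 ratio over DBY8268 for each gene (points, with bars for the SD over strains) in the 8 maltose and sucrose use genes and 4 related lists; open points had values in fewer than 12 strains. Grey bands hold the middle 50% and 90% of the genes measured in at least 12 strains. MAL12, IMA1, MAL31, MAL32, YPR196W, ZNF1 and CYB2 lie above the wider band, and MAL33 and ADH2 just below it. MPH3, ADR1, COS6 and PHO89 lie further below.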

How the data were processed

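Two-colour arrays of long oligonucleotides were hybridized with RNA of a strain and of DBY8268. The authors filtered spots, normalized each array by regional mean-centring and deposited log2 ratios of the strain over DBY8268, with dye-reversed arrays already turned: within strains, arrays of opposite dye orientation had a positive r in 38 of 38 pairs (median 0.715). No counts or intensities were used, so the number of arrays limits the precision. limma 3.58.1 in R 4.3.3 (lmFit, eBayes, 3.53 prior degrees of freedom) was fitted to all 54 arrays with a coefficient per strain, and tested each strain against DBY8268 (ratio against 0, since DBY8268 had no array of its own), the mean of strains and YPS163, with p-values adjusted by Benjamini-Hochberg over all genes of a strain and a threshold of 0.01. In all, 6033 genes had a test in at least 1 strain. The scripts were tested on simulated data. Symbols and gene order came from a RefSeq table of assembly R64, to which 5824 genes matched; the build behind the oligonucleotides is not given in the sources used here, so no coordinates were used. The 8 genes and the related lists were chosen with earlier results of these data known. Named were all 8 genes, in each list the 2 genes with the highest and the 2 with the lowest mean among those with at least 12 strains, any gene called in at least 6 strains in 1 direction, and the 3 most similar genes per member. Alternatives were median centring, scaling, a minimum of 2 arrays, dye, slide, slide series or replicate number in the fit, separate fits per strain, a false discovery rate of 0.05, each array left out, and, chosen after seeing the data, only arrays with at least 4500 genes.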

Additional observations from a re-analysis of the deposited data

Results flagged for a closer look

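Strains on either side of DBY8268 in the same gene were set against each other. For MAL33, Y1 (0.97, 2.31 and 3.28) was above M8 (-4.80 and -3.30) by 6.24 ± 0.84 (limma, adjusted p = 6.51e-06) and above YPS1009 (-3.26 and -2.33) by 4.98 ± 0.84 (adjusted p = 2.15e-04). For SUC2, K1 (1.21, 2.03 and 1.56) was above PR (-0.49, -0.94 and -1.62) by 2.62 ± 0.38 (adjusted p = 4.47e-05). In each of these pairs the strains were called in opposite directions against DBY8268, and every array of one lay above 0 and every array of the other below it. These were the pairs of strains with opposite calls in the same gene, and they were chosen for that. A called difference within such a pair largely follows from the choice and adds no separate support. Strains with 4 values of a gene were also checked for an outlying array with Dixon's test, and none passed its critical value, replicate 4 of M8 for MAL13 included.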

How the results depend on the processing

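The 24 calls (18 against DBY8268, 5 against the mean of strains and 1 against YPS163) kept their direction under every alternative. Of them, 24 stayed past the threshold with median-centred arrays and with slide as a random block, 23 with a dye term, 21 with slide series as a block and 21 on arrays with at least 4500 genes, an alternative chosen after seeing the data. Scaled arrays kept 17. In separate fits of each strain 8 of 22 were kept; such a fit has at most 3 residual degrees of freedom. With at least 2 arrays required, all 22 calls with 2 or more arrays were kept. SUC2 in K1, IMA1 in I14 and YJM269, and MAL12 in K1 against DBY8268 were kept under all of these, and 8 calls were kept whichever array was left out; MAL31 in RM11a could not be run without its only array.

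Against DBY8268 there were 15 higher and 3 lower calls: 6 and 0 with separate fits (0 lower by limma, where the shared fit had 3), and 23 and 9 at a false discovery rate of 0.05. Against the mean of strains the 4 higher calls came to 1 with separate fits, and the 1 lower call came to 0 with separate fits, 2 with median centring, 2 with slide as a random block, 3 with a dye term, 2 on arrays with at least 4500 genes and 3 at 0.05. Against YPS163 the 1 higher call came to 2 with slide series as a block, 2 with a dye term and 3 at 0.05. Leaving out 1 array gave 12 to 16 higher and 2 to 4 lower calls against DBY8268, 2 to 4 higher and 0 to 2 lower against the mean, and 1 to 3 higher and 0 lower against YPS163. The lowest counts against the mean came without replicate 3 of Y1 (2 higher) and replicate 2 of M8 (0 lower).

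Arrays with the same replicate number in different strains had a mean r of 0.08 (-0.75 to 0.68, with 184 of 411 pairs above 0.1). Those with different numbers had a lower mean r of -0.03 (236 of 960 above 0.1). The last replicate of each strain also carried Oyster 550 on series yG6, so replicate number is not separate from dye and series. Whether replicate numbers mark shared batches was not tested. With a replicate block, 21 of the 24 calls were kept, all but MAL32 in K1 (adjusted p = 0.023), IMA1 in Y10 (0.014) and SUC2 in PR (0.016), with 14 higher and 4 lower calls against DBY8268, 6 and 2 against the mean and 2 higher against YPS163. Missing values limit MAL11, MAL12, MAL32 and IMA1 most.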
